A study of Mus musculus with 6 samples.

Results

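The genes described are the glucuronosyl and glutathione transferases of the mouse liver. They were chosen by a rule on the symbol, set with earlier results of these data known. It took every gene named Ugt1 to Ugt3 (a or b), Gst (a, k, m, o, p, t or z) or Mgst1 to Mgst3. The rule found 44 of the 22068 symbols, of which 20 are UDP-glucuronosyltransferases (UGT), 21 are soluble glutathione S-transferases (GST) and 3 are microsomal glutathione S-transferases (MGST). Polyadenylated RNA of whole liver was sequenced in 6 libraries from 6-week-old mice on a C57BL/6 background. All 6 libraries carried the Mst1-/- allele and the floxed allele Mst2fl/fl, and the groups differed in Cre recombinase driven by the albumin promoter, a promoter of hepatocytes and their fetal precursors. The 3 control libraries were labelled alb-Cre-/- and the 3 Mst1/2 liver-dKO libraries, called dKO here, alb-Cre+/+, so by the labels the controls carry the Mst1 deletion as well and the groups differ in that of Mst2. Mst1 and Mst2 are the kinases at the top of the Hippo pathway, which restrains liver growth. By the labels, the comparison asks which transcripts change when Mst2 is deleted in livers that already carry the Mst1 deletion. Nothing in the labels ties the numbered replicates to different animals, so the spread behind the p-values may be technical.

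Both superfamilies carry out conjugation, the step of detoxification that makes a compound water soluble. UGT enzymes of the endoplasmic reticulum transfer glucuronic acid from UDP-glucuronic acid to bilirubin, steroids, bile acids and drugs, and GST enzymes couple the tripeptide glutathione to reactive electrophiles. The conjugates then leave the hepatocyte through transporters into bile or blood, and several of these genes are known targets of the xenobiotic receptors and of the oxidative stress factor NRF2.

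Values are RPKM, reads scaled to transcript length and library size, so that levels can be set side by side between genes, and values of 3 libraries are given in the order of replicates 1, 2 and 3. Stk3 (Mst2) measured 6.00, 5.42 and 5.20 RPKM in control and 5.13, 4.25 and 5.32 RPKM in dKO livers, and Stk4 (Mst1) measured 5.50, 4.69 and 4.66 against 5.84, 4.93 and 5.76. The groups overlapped for both kinases (adjusted p = 0.424 and 0.487), so gene-level RPKM did not check the labels, and where the deleted exons lie was not examined. Of 16 alternatives 1, quantile normalization, called Stk3, lower in dKO livers (adjusted p = 0.0475, highest over all alternatives 0.748). RPKM sums ran from 364571 to 368246 in control and from 324034 to 352678 in dKO libraries, and the spacing of low values gave an estimated 17.2 to 25.1 M reads per library. The first principal component held 67.3% of the variance, with control libraries at -35.7 to -25.4, dKO replicates 1 and 2 at 20.3 and 19.2 and dKO replicate 3 apart at 49.0.

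Some markers of cell types and liver zones moved with the groups, and their part in the results below was not tested. As background for the counts, 17.8% of all tested genes were called higher in dKO livers and 2.17% lower. The cholangiocyte and progenitor markers summed to 42.8 to 103 RPKM in control and 398 to 1094 RPKM in dKO libraries, and 10 of 10 tested rose, among them the biliary factor Sox9 (log2 difference 2.61 ± 0.35 SE, adjusted p = 0.00519). That count was 7 on omitting control replicate 1, 8 or 9 on omitting any other library, and 8 under median-ratio, upper-quartile or quantile scaling. Among the 10, Epcam and Cldn7 reached a mean of 1 RPKM only through the dKO libraries (control means 0.359 and 0.623 RPKM). The pericentral hepatocyte markers summed to 2861 to 3557 against 614 to 1254 RPKM, and 10 of 11 fell, among them Glul, glutamine synthetase (-1.89 ± 0.20, adjusted p = 0.00121), or 6 on omitting control replicate 1. Hepatocyte markers summed to 62780 to 78947 against 51388 to 60301 RPKM, and Alb measured 43195 ± 6100 against 36501 ± 2121 RPKM (SD, n = 3 per group, adjusted p = 0.527). Of 11 hepatocyte markers 2, Ttr and Serpina1a, were lower, but none was with the replicate block, under median-ratio, upper-quartile or quantile scaling, or on omitting replicate 1 or 3 of either group. Periportal markers had 2 of 10 higher and 3 lower, or 1 and 1 on omitting control replicate 1 or 3. Of 9 macrophage markers 2 were higher (22.2%, near the background), or 6 on omitting control replicate 2 and 1 on omitting control replicate 3. Of 10 stellate markers none was called, but 3 were higher with the replicate block and 2 on omitting dKO replicate 2, and of 10 endothelial markers none was called with or without the block. Only 2 of 9 lymphocyte and neutrophil markers reached a mean of 1 RPKM, and neither was called, but 1 was lower with the replicate block and 1 higher on omitting control replicate 2. The labels used here give no sex. Of male-biased liver genes 2 of 9 were higher (22.2%, near the background). That list includes the transferases Gstp1 and Ugt2b1, tested and not called with all 6 libraries, and Ugt2b38, not tested. Of female-biased liver genes 5 of 12 were lower, with sums of 1488 to 1788 against 380 to 745 RPKM. The male-biased count was 1 on omitting control replicate 1 or 3 or dKO replicate 2 and 3 on omitting control replicate 2, and the female-biased count was 3 on omitting control replicate 1 or 2 or dKO replicate 3 and 2 on omitting control replicate 3. In whole tissue, fewer cells of a type and less RNA per cell cannot be told apart.

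Of the 44 transferase genes, 34 had a mean of at least 1 RPKM over the 6 libraries and were tested: 14 UGT, 18 GST and 2 MGST. The limma test on log2(RPKM + 1), with Benjamini-Hochberg adjustment over all 11062 tested genes and a threshold of 0.05, called 8 transferases higher in dKO livers (23.5%) and 3 lower (8.82%). Over all tested genes 17.8% were higher and 2.17% lower, 19.9% in all, so the transferases' share of higher calls was near that background. The median log2 difference, dKO minus control, was 0.09 over the tested transferases and 0.23 over all genes. Every dKO library lay above every control library at 9 transferases and below at 6, and the groups overlapped at 19. Over all tested genes 38.3% lay wholly above and 6.73% wholly below, 45.1% together. The GST genes held most calls, with 7 of 18 higher and 2 lower and a median log2 difference of 0.38. Those 7 include Gsta1, which reached the filter only through the dKO libraries (mean 0.722 RPKM in control and 4.87 RPKM in dKO livers). The UGT genes had 1 higher and 1 lower of 14, with a median of -0.12, and neither MGST gene was called.

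These counts depended on how the libraries were scaled and on single libraries. Median-ratio scaling gave 3 transferases higher and 4 lower, upper-quartile scaling 4 and 4, and quantile normalization 4 and 2. Over all genes the same settings gave 866 higher and 613 lower, 943 and 537, and 727 and 554, in place of 1965 and 240. The median of all genes shifted by -0.24, -0.20 and -0.27 under the 3 settings, so differences below are relative to the deposited scale. Gsta1, Gsta2 and Gstm3 stayed called higher under median-ratio scaling, and Gstm6, Gstt3 and Ugt1a1 stayed called lower. Without 1 library, the higher calls numbered 2 (control replicate 1 or dKO replicate 3 omitted), 3 (control replicate 3), 4 (dKO replicate 1), 6 (dKO replicate 2) or 11 (control replicate 2). The lower calls numbered 0 (control replicate 1 omitted), 1 (control replicate 3 or dKO replicate 2), 2 (control replicate 2 or dKO replicate 3) or 3 (dKO replicate 1). With no filter on low values, which raised the genes tested to 16907, Gsta1, Gsta4, Gstm2, Gstm5 and Ugt2b37 lost their higher call and Gstt3 its lower one. Some genes that were not called passed the test elsewhere: Gstm4, Gstp1, Mgst3 and Ugt2b35 were called higher with sample weights and on omitting control replicate 2, Gsta3 and Ugt2b36 higher and Ugt3a2 lower with sample weights, Ugt1a5 lower on omitting dKO replicate 1, and Ugt2b34 lower under median-ratio and upper-quartile scaling.

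**Figure D1:**
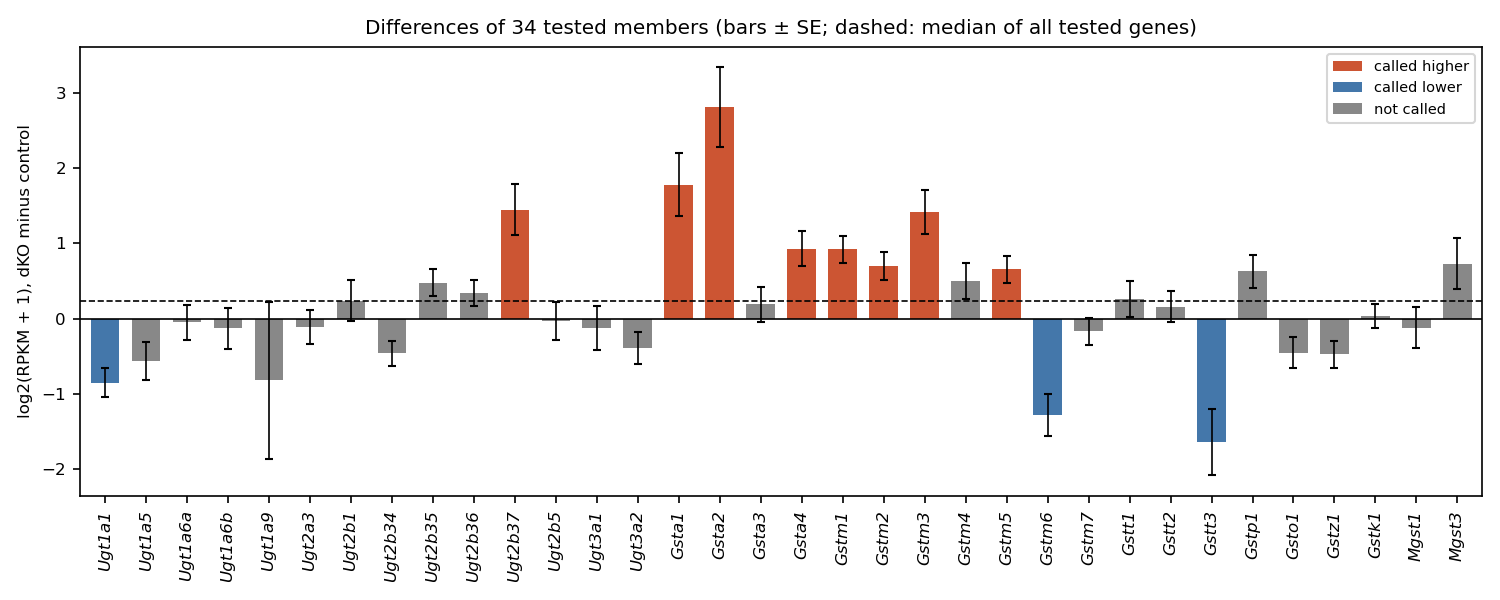
Difference of each of the 34 tested transferases (y axis: dKO minus control, log2(RPKM + 1); bars with SE), ordered by enzyme class, with genes called higher in red, called lower in blue and the others in grey. The dashed line is the median of all tested genes, 0.23. The 8 higher calls lie in the Gsta, Gstm and Ugt2b classes and the 3 lower calls in Gstm, Gstt and Ugt1a.

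The alpha class, Gsta1 to Gsta4, conjugates lipid peroxidation products and toxin epoxides, and 3 of its 4 genes were higher in dKO livers. Of these 3, Gsta1 passed the filter only through the dKO libraries. Gsta2 measured 2.29, 13.9 and 3.69 RPKM in control and 42.1, 43.2 and 40.6 RPKM in dKO livers. The dKO libraries were close to each other and all lay above the highest control, replicate 2. The means were 6.63 ± 6.34 and 41.9 ± 1.31 RPKM (SD, n = 3 per group), a ratio of 6.33, and the log2 difference was 2.81 ± 0.53 (SE, adjusted p = 0.0180, limma). Leaving out control replicate 2 raised the ratio to 14.0, and the call was lost without control replicate 3, dKO replicate 1 or dKO replicate 3 (highest adjusted p over all alternatives 0.0655).

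Gsta1, its close relative, was a low transcript with 0.134, 1.76 and 0.277 RPKM in control and 8.18, 3.38 and 3.05 RPKM in dKO livers. In estimated reads this was 2, 39 and 5 against 155, 62 and 65. The groups did not overlap (log2 difference 1.78 ± 0.42, adjusted p = 0.0283). The ratio of means, 6.74, became 23.7 without control replicate 2 and 4.45 without dKO replicate 1, and the call was lost under quantile normalization, with the replicate block and on omitting replicate 1 or 3 of either group (highest adjusted p 0.0971). Of the 50-base stretches of its transcript, 89.7% also occurred in another gene, mostly Gm3776, and for Gsta2 it was 64.2%, mostly in Gsta1, so their reads could have been split between them and both values are uncertain.

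Gsta4, which conjugates 4-hydroxynonenal, a product of lipid peroxidation, shared no such stretch. It measured 32.0, 53.6 and 33.0 RPKM in control and 89.5, 60.3 and 75.7 RPKM in dKO livers. It rose 1.90-fold from 39.5 ± 12.2 to 75.1 ± 14.6 RPKM (log2 difference 0.93 ± 0.23, adjusted p = 0.0266), without overlap. Median-ratio and upper-quartile scaling lost the call, as did omitting replicate 1 or 3 of either group (highest adjusted p 0.0934).

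Gsta3, the constitutive alpha enzyme that detoxifies aflatoxin epoxide in mice, made up most of the class. It measured 405, 655 and 440 RPKM in control and 633, 547 and 504 RPKM in dKO livers, and the groups overlapped. The log2 difference was 0.19 with a 95% confidence interval of -0.32 to 0.71 (adjusted p = 0.549). Gsta3 made up 91.6% ± 1.03 of the summed alpha RPKM in control and 82.1% ± 1.40 in dKO livers (SD), while Gsta2 went from 1.07% ± 0.746 to 6.19% ± 0.646. The ranges of both shares did not overlap, so the makeup of the class differed while its sum, 439, 724 and 477 against 773, 653 and 623 RPKM, overlapped.

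**Figure D2:**
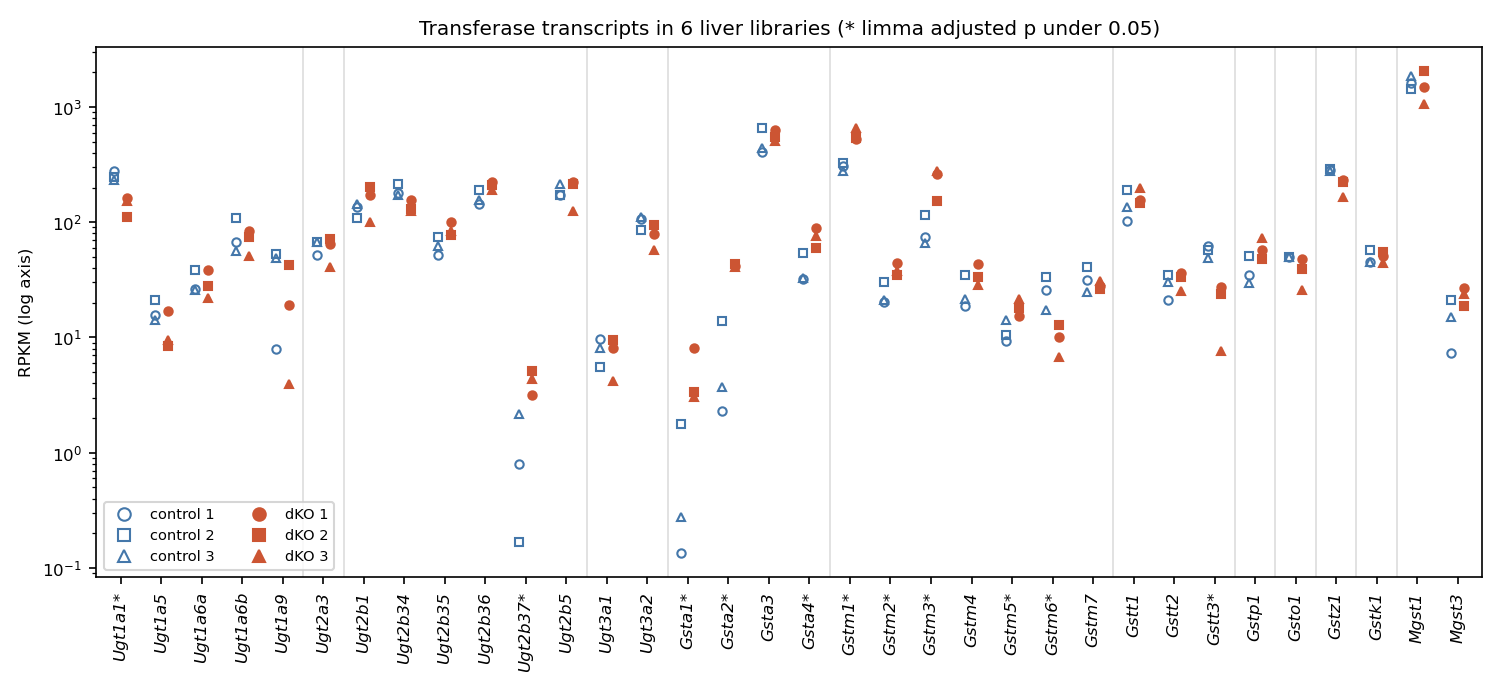
RPKM of the 34 tested transferases in each library (log axis), with open blue points for the 3 control and filled red points for the 3 dKO libraries, and an asterisk at genes with a limma adjusted p under 0.05. Mgst1 is the highest gene in every library, and the Gsta2 points of the 3 dKO libraries sit between 40.6 and 43.2 RPKM, above the 3 control libraries.

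The mu class, Gstm1 to Gstm7, is a cluster of neighbouring genes on chromosome 3 whose enzymes conjugate epoxides and other electrophiles. It held the most calls of any class, with 4 of 7 higher and 1 lower. Gstm1, the most abundant of them, measured 305, 328 and 277 RPKM in control and 530, 539 and 659 RPKM in dKO livers. It rose 1.90-fold from 303 ± 25.7 to 576 ± 72.0 RPKM (SD, n = 3 per group, log2 difference 0.92 ± 0.18, adjusted p = 0.0113). The groups were far apart, and the call was lost under median-ratio scaling and without control replicate 3 (highest adjusted p 0.0582).

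Gstm3 measured 74.1, 116 and 66.3 RPKM in control and 261, 154 and 281 RPKM in dKO livers, with dKO replicate 2 nearest to the controls. It rose 2.71-fold from 85.5 ± 26.9 to 232 ± 68.4 RPKM (log2 difference 1.42 ± 0.29, adjusted p = 0.0134), and leaving out control replicate 1 gave an adjusted p of 0.0596, the only lost call. Its share of the mu class was 16.6% ± 2.56 in control and 24.4% ± 4.92 in dKO livers. Those shares overlapped between the groups.

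Gstm2 measured 20.5, 30.4 and 21.0 RPKM against 44.7, 34.6 and 38.1 RPKM, a ratio of 1.63 (log2 difference 0.70 ± 0.18, adjusted p = 0.0288). Gstm5 measured 9.34, 10.4 and 14.2 against 15.4, 18.0 and 21.6 RPKM, a ratio of 1.62 (0.66 ± 0.18, adjusted p = 0.0355). Neither gene's groups overlapped, but the gaps between the nearest libraries were small. Both calls were lost under median-ratio, upper-quartile and quantile scaling and on omitting control replicate 1 or dKO replicate 3. That of Gstm2 was also lost on omitting control replicate 3 or dKO replicate 1 and with the replicate block (highest adjusted p 0.126), and that of Gstm5 on omitting replicate 2 of either group and with sample weights (0.157).

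Gstm6 was the mu gene called lower. It measured 25.6, 33.5 and 17.3 RPKM in control and 10, 12.9 and 6.73 RPKM in dKO livers, with every dKO library below every control. It fell 2.58-fold from 25.5 ± 8.12 to 9.89 ± 3.11 RPKM (log2 difference -1.28 ± 0.28, adjusted p = 0.0201). Its share of the mu class dropped from 4.95% ± 0.913 to 1.09% ± 0.476, with no overlap between the groups. The call was lost without control replicate 1, dKO replicate 1 or dKO replicate 3 (highest adjusted p 0.0764).

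In chromosome order the mu genes are Gstm5, Gstm7, Gstm6, Gstm3, Gstm2, Gstm1 and Gstm4, so Gstm6, which fell, lies between Gstm7 and Gstm3. Gstm7 measured 32.5 ± 8.16 and 28.3 ± 2.30 RPKM (log2 difference -0.17 ± 0.18, adjusted p = 0.518), and Gstm4 25.1 ± 8.47 and 35.0 ± 7.34 RPKM (0.50 ± 0.24, adjusted p = 0.161). Neither passed the test, and both overlapped between the groups. As annotated transcripts, Gstm3 shared 28.8%, Gstm1 23.1%, Gstm6 11.5% and Gstm2 9.36% of their 50-base stretches with other genes, 6.73% for Gstm6 with Gstm3, while Gstm4, Gstm5 and Gstm7 shared none.

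**Figure D3:**
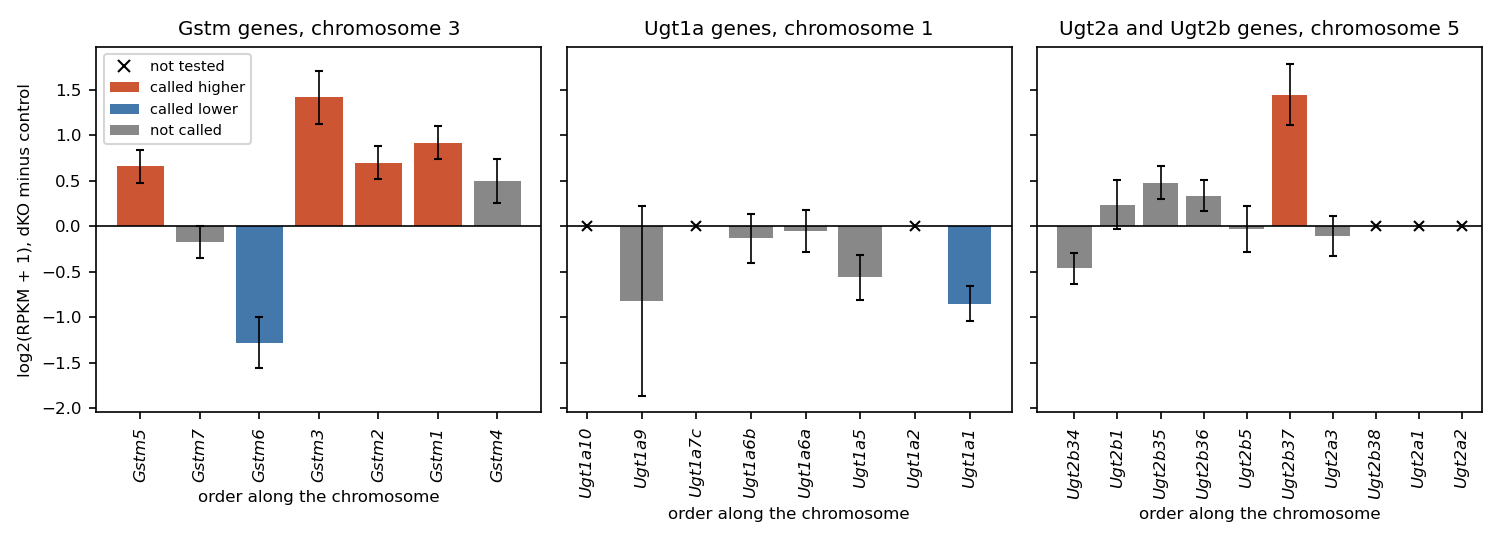
Difference (y axis: dKO minus control, log2(RPKM + 1); bars with SE) of the genes in the Gstm, Ugt1a and Ugt2 clusters, in their order along the chromosome, coloured by call, with crosses for genes not tested. Gstm6 at -1.28 sits between Gstm7 at -0.17 and Gstm3 at 1.42.

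The theta class had 1 lower gene of 3 tested. Gstt3 measured 62.1, 57.4 and 49.1 RPKM in control and 27.4, 23.8 and 7.57 RPKM in dKO livers. The dKO libraries all lay below the controls and replicate 3 was the lowest. The fall was 2.87-fold, from 56.2 ± 6.55 to 19.6 ± 10.6 RPKM (SD, n = 3 per group, log2 difference -1.64 ± 0.44, adjusted p = 0.0434). The call was lost without any 1 of the control replicates or without dKO replicate 2, and under quantile normalization (highest adjusted p 0.130). Of the 50-base stretches of the Gstt3 transcript, 26.0% also occurred in Gm20441, so its value is open to split reads as well. Gstt1, which acts on small halogenated compounds, measured 102, 190 and 135 against 157, 148 and 197 RPKM, and the groups overlapped (0.26 ± 0.24, adjusted p = 0.435). Gstt3 made up 25.6% ± 6.97 of the theta RPKM in control and 9.12% ± 5.06 in dKO livers, whereas the class sums, 185 to 282 and 205 to 230 RPKM, overlapped. Gstt2 measured 28.6 ± 6.81 and 31.7 ± 5.69 RPKM (adjusted p = 0.591), and Gstt4 was listed at 0 in all libraries.

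The remaining soluble classes are each led by 1 gene, and none was called. Gstz1, the maleylacetoacetate isomerase of tyrosine breakdown and the fourth most abundant transferase, measured 283, 292 and 278 RPKM in control and 232, 222 and 165 RPKM in dKO livers. Every dKO library lay below the controls, yet the difference of -0.47 ± 0.18 had an adjusted p of 0.0920. Gsto1, a glutathione-dependent reductase, measured 49.9, 50.3 and 50.3 against 47.7, 39.3 and 25.7 RPKM, also without overlap (-0.45 ± 0.21, adjusted p = 0.15). The 3 control values of Gsto1 were nearly equal, and dKO replicate 3 lay furthest below them, followed by dKO replicate 2.

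Gstp1, the pi enzyme and a male-biased gene of mouse liver, measured 38.4 ± 10.8 and 59.5 ± 12.3 RPKM (0.63 ± 0.22, adjusted p = 0.0746) with overlap between the groups. It shared 62.3% of its stretches with Gstp2, which was listed at 0 to 0.499 RPKM. Gstk1, the kappa enzyme of mitochondria and peroxisomes, measured 49.4 ± 7.34 and 50.2 ± 5.73 RPKM, with a 95% confidence interval of the log2 difference of -0.33 to 0.38.

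Mgst1, a membrane-bound transferase and peroxidase of the endoplasmic reticulum and outer mitochondrial membrane, was the most abundant transferase. It measured 1628, 1419 and 1845 RPKM in control and 1500, 2049 and 1069 RPKM in dKO livers. The dKO libraries held both its highest and its lowest value, and the log2 difference was -0.12 with a 95% confidence interval of -0.73 to 0.48 (adjusted p = 0.75). Its sign turned to 0.11 without dKO replicate 3 and to 0.29 under quantile normalization. Mgst3, a relative of leukotriene C4 synthase, measured 7.36, 21.0 and 15 against 26.9, 18.7 and 23.6 RPKM (0.73 ± 0.34, adjusted p = 0.154). Mgst2 lay under the filter, at 0, 0 and 0.324 RPKM in control and 1.16, 0.478 and 1.32 RPKM in dKO livers, or about 0, 0 and 4 against 15, 6 and 19 estimated reads.

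Oxidative stress acts on many of these genes through NRF2 (Nfe2l2), which binds the antioxidant response element, so the promoters were searched for its core. The letters TGACNNNGC were looked for on both strands, from 250 bases before to 50 bases after each start, in the RefSeq promoter table of GRCm38.p6, which held 49 promoters of 40 of the transferase genes. The core occurred in 4 of the 49 promoters (8.16%), of Gsta3, Gstm5, Gstm7 and Mgst1, and in 12.4% of all 32851 promoters. The 150 bases before the start are shown for the 2 most abundant transferases and for Gstm5, the called gene among the 4, with the core in capitals (on the opposite strand in Mgst1).
Gsta3 (chr1:21240435-21240584, plus strand): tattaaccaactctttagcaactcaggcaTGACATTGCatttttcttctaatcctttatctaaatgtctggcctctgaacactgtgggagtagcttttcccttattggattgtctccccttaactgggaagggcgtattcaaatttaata
Gstm5 (chr3:107895704-107895853, plus strand): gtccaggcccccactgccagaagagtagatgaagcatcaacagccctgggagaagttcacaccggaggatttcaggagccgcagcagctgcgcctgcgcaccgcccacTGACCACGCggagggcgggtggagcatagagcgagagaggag
Mgst1 (chr6:138140377-138140526, plus strand): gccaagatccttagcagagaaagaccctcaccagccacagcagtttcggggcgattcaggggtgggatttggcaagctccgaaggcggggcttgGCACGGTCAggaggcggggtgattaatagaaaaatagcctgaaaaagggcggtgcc

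Of the genes with the core, Gstm5 was called higher, and Gsta3, Gstm7 and Mgst1 were not called. Gsta1, Gsta2, Gstm1, Gstm2, Gstm3 and Ugt2b37, called higher, had no match in these windows, and Gsta4 was not in the promoter table. The aryl hydrocarbon receptor core GCGTG occurred in 16.3% of the transferase promoters against 32.4% of all. For the TEAD core GGAATG, the motif of the factors that pair with the Hippo effector YAP, the shares were 10.2% and 14.7%. For the STAT5 motif TTCNNNGAA they were 10.2% and 8.30%. The TEAD core was present at Gstm2, Gstm6, Gstm7, Ugt1a10 and Ugt3a1, of which Gstm2 was called higher and Gstm6 lower.

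The Ugt1a genes share their last exons and differ in the first, each with its own promoter, in a cluster on chromosome 1. Of the 5 tested genes 1 was called, lower in dKO livers. Ugt1a1, the enzyme that conjugates bilirubin, measured 278, 249 and 233 RPKM in control and 163, 110 and 152 RPKM in dKO livers. All dKO libraries lay below the lowest control. It fell 1.79-fold from 253 ± 22.5 to 142 ± 28.2 RPKM (SD, n = 3 per group, log2 difference -0.85 ± 0.19, adjusted p = 0.0191). The call was lost without control replicate 1, control replicate 3 or dKO replicate 2 (highest adjusted p 0.0726).

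The other Ugt1a genes did not pass the test. Ugt1a6b, a phenol-conjugating form, measured 67.5, 109 and 56.5 against 83.1, 75.0 and 50.9 RPKM (log2 difference -0.13 ± 0.27, adjusted p = 0.749), and its near-identical copy Ugt1a6a 30.3 ± 7.21 and 29.5 ± 8.26 RPKM (adjusted p = 0.882). Ugt1a5 measured 17 ± 3.63 and 11.6 ± 4.61 RPKM (-0.56 ± 0.25, adjusted p = 0.141). Ugt1a9, with the largest SE of the tested members on the log2 scale, measured 7.89, 53.0 and 48.7 RPKM in control and 19.2, 42.4 and 3.92 RPKM in dKO livers, so that each group held high and low libraries (-0.82 ± 1.04, adjusted p = 0.589). Its ratio of 0.598 became 0.316 without dKO replicate 2.

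The shared exons make up most of each transcript, and 58.2% of the 50-base stretches of Ugt1a1 occurred in another Ugt1a gene. For Ugt1a6a it was 100%, all found in annotated Ugt1a7c transcripts, so more than the last exons was shared there. How the authors' counting split such reads is not given in the sources used here. Ugt1a10 measured 6.17e-05 RPKM in dKO replicate 3, above 0 but less than 1 estimated read, so not every value stands for whole reads. The sum over the 8 Ugt1a genes is less open to such splitting. It was 396, 472 and 380 RPKM in control and 321, 264 and 239 RPKM in dKO livers, or 416 ± 49.5 and 275 ± 41.9, a ratio of 0.661 with every dKO library below the controls. Ugt1a1 made up 61.5% ± 8.66 and 51.9% ± 11.1 of it, with overlapping shares.

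The Ugt2 enzymes conjugate steroids, bile acids and fatty acids, and 1 of 7 tested genes was called. Ugt2b37 was a low transcript that measured 0.798, 0.169 and 2.16 RPKM in control and 3.16, 5.09 and 4.39 RPKM in dKO livers. These values rested on about 26, 8 and 85 against 129, 203 and 203 estimated reads, and the groups did not overlap (log2 difference 1.45 ± 0.34, adjusted p = 0.0254). The ratio of means, 4.04, became 8.71 without control replicate 3. The call was lost in 9 of 16 alternatives, among them the lower pseudocount, median-ratio and upper-quartile scaling, quantile normalization and the omission of control replicate 1, dKO replicate 2 or dKO replicate 3 (highest adjusted p 0.0886), and 18.3% of its stretches were shared, mostly with Ugt2b5.

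None of the abundant Ugt2 genes passed the test on the deposited scale. Ugt2b34 measured 179, 215 and 174 RPKM in control and 156, 130 and 124 RPKM in dKO livers, all dKO libraries below the controls (-0.46 ± 0.17, adjusted p = 0.0815). It was called lower under median-ratio and upper-quartile scaling. Ugt2b35 measured 52.1, 74.1 and 62.0 against 100, 77.6 and 84.6 RPKM, all dKO libraries above (0.48 ± 0.18, adjusted p = 0.0836), and was called higher with sample weights and on omitting control replicate 2. Ugt2b34 and Ugt2b35 therefore lay on opposite sides of their controls, and the sign of each difference was the same in all 16 alternatives.

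Ugt2b36 measured 145, 192 and 157 against 222, 212 and 191 RPKM (0.34 ± 0.17, adjusted p = 0.170), and Ugt2b5 174, 171 and 214 against 225, 214 and 124 RPKM (-0.03 ± 0.25, adjusted p = 0.935). Ugt2b1, a male-biased gene, measured 136, 109 and 144 against 174, 203 and 99.7 RPKM (0.24 ± 0.27, adjusted p = 0.524). Ugt2a3 measured 52.3, 67.8 and 68.0 against 64.1, 72.2 and 41.0 RPKM (-0.11 ± 0.22, adjusted p = 0.728). All 4 overlapped between the groups, and in 3 of them, Ugt2b5, Ugt2b1 and Ugt2a3, dKO replicate 3 was the lowest of all 6 libraries. The Ugt3a enzymes use other UDP sugars than glucuronic acid. Ugt3a2 measured 107, 85.4 and 110 against 79.8, 95.3 and 57.8 RPKM (-0.39 ± 0.21, adjusted p = 0.194), and Ugt3a1 7.81 ± 2.11 and 7.30 ± 2.76 RPKM (adjusted p = 0.780).

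The other 10 members were under the filter and not tested. Besides Mgst2, Gstp2 and Gstt4, these were Gsto2, Ugt1a10, Ugt1a2, Ugt1a7c, Ugt2a1, Ugt2a2 and Ugt2b38, whose mean over the 6 libraries was at most 0.439 RPKM. Ugt1a2 measured 0.557 ± 0.154 RPKM in control and 0.322 ± 0.103 RPKM in dKO livers, and the other 6 overlapped between the groups.

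By class, the summed RPKM described how the transferase pool was made up. All 44 genes summed to 4410, 4883 and 4717 RPKM in control and 5197, 5396 and 4291 RPKM in dKO livers, which is 1.21% to 1.33% and 1.32% to 1.53% of all RPKM. The groups overlapped in this total. The mu class summed to 485, 594 and 442 against 933, 819 and 1066 RPKM, a ratio of 1.85 with all dKO libraries above. The Ugt1a, omega and zeta sums lay wholly below the controls, with ratios of 0.661, 0.749 and 0.726. The sums of the alpha, theta, pi, kappa, Mgst, Ugt2a, Ugt2b and Ugt3a classes overlapped, with ratios from 0.782 (Ugt3a) to 1.55 (pi).

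**Figure D4:**
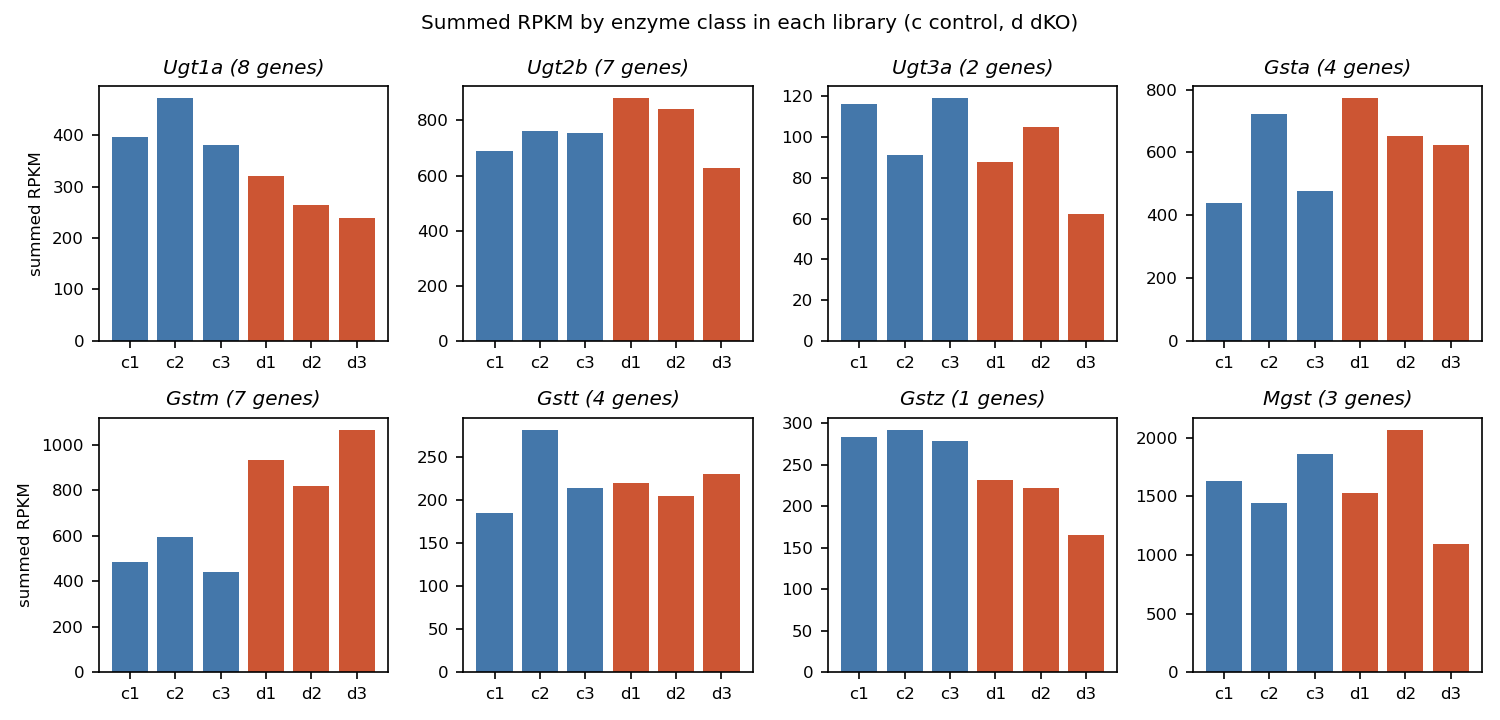
Summed RPKM of 8 enzyme classes, 1 bar per library (c, control, blue; d, dKO, red; each panel has its own axis from 0). The mu class lies between 442 and 594 RPKM in control and 819 and 1066 RPKM in dKO libraries, and the Ugt1a class between 380 and 472 and 239 and 321 RPKM.

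Single libraries had a visible place in these values. Control replicate 2 was the highest control at 24 of 34 tested transferases (70.6%), against 48.4% of all tested genes. In the dKO group, replicate 3 was the lowest at 21 of 34 (61.8%), against 19.9% of all tested genes. Replicate 3 was also the dKO library with the lowest pericentral sum, 614 RPKM, and the highest cholangiocyte sum, 1094 RPKM. Their part in the transferase values was not tested.

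**Figure D5:**
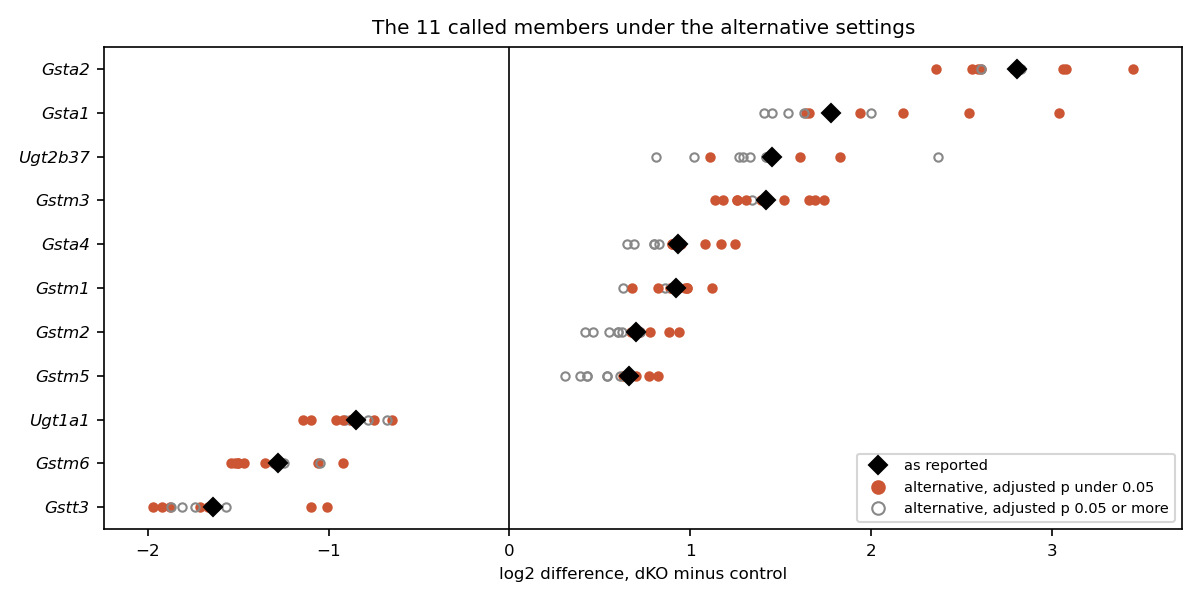
Log2 difference (dKO minus control) of the 11 called transferases as reported (diamonds) and under 16 alternatives (circles), filled where the adjusted p was under 0.05 and open where it was not. Each of the 11 kept its direction, and Gstm3 kept its call in 15 of 16 alternatives.

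The steps before and after conjugation were read from gene lists on the same fit. Of 5 genes that supply or remove glucuronic acid none was called, among them Ugdh, which makes UDP-glucuronic acid (37.8 ± 18.7 to 50.4 ± 9.53 RPKM). Of 7 tested genes of glutathione synthesis and reduction, 2 were higher and 1 lower, with a median log2 difference of 0.02. Gclm, the modifier subunit of the rate-limiting ligase, measured 60.9, 63.9 and 64.8 against 91.5, 88.6 and 95.6 RPKM (0.53 ± 0.13, adjusted p = 0.0257). Its catalytic partner Gclc measured 150 ± 10 and 136 ± 16.7 RPKM (adjusted p = 0.507). Gss, glutathione synthetase, measured 30.3 ± 3.85 and 48.8 ± 10.4 RPKM (0.65 ± 0.18, adjusted p = 0.0374). Cbs, which feeds homocysteine sulfur towards cysteine, fell from 188 ± 21.3 to 96.6 ± 14.5 RPKM (-0.96 ± 0.17, adjusted p = 0.00930). The call of Cbs held in all 16 alternatives. Those of Gclm and Gss were lost under median-ratio and upper-quartile scaling and on omitting replicate 1 or 3 of either group, that of Gclm also on omitting dKO replicate 2 and with the replicate block, and that of Gss also on omitting control replicate 2, under quantile normalization and with no filter.

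Of 8 tested genes of glutathione breakdown and mercapturate formation, 1 was higher and 2 were lower (median 0.08). Ggt6, a gamma-glutamyltransferase, rose from 2.41 ± 1.49 to 10.1 ± 0.987 RPKM (1.79 ± 0.27, adjusted p = 0.00560), and Chac2, which cleaves glutathione in the cytosol, fell from 22.8 ± 2.58 to 12.5 ± 1.93 RPKM (-0.82 ± 0.15, adjusted p = 0.00896). Both calls held in all 16 alternatives. Acy3, an aminoacylase that acts on mercapturates, fell from 25.9 ± 1.18 to 16.5 ± 3.64 RPKM (-0.64 ± 0.17, adjusted p = 0.0297), a call lost with no filter and on omitting control replicate 1 or 3 or dKO replicate 2 or 3. Of 11 other tested glutathione-using enzymes 3 were higher and none lower (median 0.17), namely Esd, Glrx and Gpx7. Esd, which hydrolyses S-formylglutathione, had a log2 difference of 0.65 ± 0.12 (adjusted p = 0.0104), and under median-ratio scaling none of the 3 was called. Omitting control replicate 1, dKO replicate 2 or dKO replicate 3 lost the call of Gpx7, and omitting replicate 1 of either group, control replicate 3 or dKO replicate 2 that of Glrx, which the replicate block lost as well.

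The export list had 3 of 9 tested genes higher and none lower, with a median log2 difference of 0.60. The count was the same under median-ratio scaling. Whether every listed gene, Abcb1a among them, exports conjugates was not examined. Abcc3, the basolateral exporter of glucuronides, measured 31.5, 35.0 and 29.6 RPKM in control and 77.3, 82.9 and 73.7 RPKM in dKO livers (1.26 ± 0.13, adjusted p = 0.00118). The libraries of each group were close together and far from the other group. Abcb1a rose from 3.55 ± 0.833 to 14.8 ± 1.11 RPKM (1.80 ± 0.16, adjusted p = 0.000607) and Abcc5 from 1.28 ± 0.25 to 5.56 ± 2.29 RPKM (1.47 ± 0.24, adjusted p = 0.00708). All 3 calls held in all 16 alternatives. Abcc2, the canalicular exporter of conjugates into bile, measured 72.5 ± 7.46 and 64.3 ± 4.38 RPKM (adjusted p = 0.404). Of 7 tested structural relatives outside the symbol rule 2 were higher, the chloride channel relative Clic3 (1.09 ± 0.20, adjusted p = 0.00926) and Alox5ap, the 5-lipoxygenase activating protein (0.86 ± 0.24, adjusted p = 0.0382), of which Clic3 lost its call under quantile normalization and Alox5ap in 9 of 16 alternatives, among them the replicate block and the omission of replicate 1 or 3 of either group.

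Of 13 transcription factors known to act on transferase genes, 1 was called. Nfe2l2 measured 44.3, 33.9 and 33.0 RPKM in control and 60.7, 70.3 and 62.2 RPKM in dKO livers, without overlap (0.79 ± 0.16, adjusted p = 0.0124). The call was lost under median-ratio and upper-quartile scaling and without control replicate 3 (highest adjusted p 0.103). Nqo1, a gene that NRF2 is known to act on, measured 6.76, 14.8 and 7.94 against 16.0, 15.8 and 13.6 RPKM and was not called (0.64 ± 0.25, adjusted p = 0.0977), except with sample weights or without control replicate 2. Nr1i3, the receptor CAR, measured 62.3, 55.7 and 52.1 against 38.6, 43.1 and 13.7 RPKM, below the controls but not called (-0.96 ± 0.40, adjusted p = 0.123), and its target Cyp2b10 8.86 ± 5.60 and 15.4 ± 8.48 RPKM (adjusted p = 0.410). Nr1i2, the receptor PXR, measured 24.1 ± 3.12 and 22.9 ± 2.37 RPKM (adjusted p = 0.729), and Ahr 14.2 ± 2.23 and 16.0 ± 2.22 RPKM (adjusted p = 0.443). Among 11 tested readouts of these factors 3 were lower and none higher. Cyp1a2, a target of the aryl hydrocarbon receptor that is also a pericentral marker, fell from 434 ± 120 to 177 ± 56.0 RPKM (-1.30 ± 0.29, adjusted p = 0.0184, lost without control replicate 1). Cyp4a10 (-1.81 ± 0.45, adjusted p = 0.0332) and Cyp4a14 (-2.97 ± 0.60, adjusted p = 0.0215), targets of the fatty acid receptor PPARA, also fell, with calls lost on omitting control replicate 1 or 3 in both genes, control replicate 2 in Cyp4a14 and dKO replicate 2 or 3 in Cyp4a10, which also lost its call under quantile normalization and with no filter.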

How the data were processed

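The deposited files give 1 RPKM value per symbol and library, made by the authors before deposit, and the unit was inferred from the values, which did not contradict it. Per the submitters' processing notes the build was mm9. Aligner, counter and annotation are not given in the sources used here. Libraries were grouped by title. The 11062 genes whose mean reached 1 RPKM were fitted as log2(RPKM + 1) with limma 3.58.1 in R 4.3.3 (trend and robust moderation, no block), with calls at 0.05 after Benjamini-Hochberg adjustment. Differences are dKO minus control on that scale, which understates changes of low genes. An exact permutation test of 3 against 3 could not go below 0.1. Estimated reads assume that low values step by whole reads, and 62.7% to 70.0% of those used lay within 0.15 of one. The depth was chosen to fit those same values best, so that share is no check of it. For genes that share sequence the assumption need not hold, and their estimated reads are approximate. Shared 50-base stretches came from GENCODE M21 transcripts and promoters from RefSeq (GRCm38.p6), with Python 3.11.15, numpy 2.4.6, pandas 2.3.3 and matplotlib 3.10.9. Other pseudocounts, filters, scalings, sample weights, a replicate block, a stricter threshold and the omission of each library were tried.

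The members and gene lists were chosen with earlier results of these data known, and a symbol can be in more than 1 list. Values in every library were given for called members and those averaging 50 RPKM or more, and from each pathway list up to 3 called genes with the smallest p were named, together with a set of regulators, targets and markers. Ugdh and the low members were named in addition, after their values were seen.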

Additional observations from a re-analysis of the deposited data

How the results depend on the processing

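Each of the 11 called transferases kept its direction in all 16 alternatives that refit the data. The higher and lower calls, 8 and 3, became 0 and 0 at an adjusted p under 0.01, and the higher calls 3 with no filter on low values, 3 with median-ratio scaling and 4 each with upper-quartile scaling and quantile normalization. Leaving out 1 library gave 2 to 11 higher and 0 to 3 lower. For GST genes (7 and 2) the counts were 3 and 1 with no filter, 3 higher with median-ratio scaling, 4 higher with upper-quartile scaling, 4 and 1 with quantile normalization, 0 and 0 at 0.01, and 2 to 8 and 0 to 1 with 1 library left out. For UGT genes (1 and 1) the higher count was 0 with a pseudocount of 0.1, no filter, median-ratio scaling, upper-quartile scaling, quantile normalization and at 0.01, and 2 with sample weights, the lower count was 2 with sample weights and with median-ratio or upper-quartile scaling and 0 at 0.01, and both were 0 to 2 with 1 library left out. MGST genes had 1 higher with sample weights and 0 to 1 with 1 library left out. Over all genes (1965 and 240), median-ratio scaling gave 866 and 613, upper-quartile scaling 943 and 537, quantile normalization 727 and 554, sample weights 4133 and 601, an adjusted p under 0.01 490 and 49, no filter 145 lower, and the omission of 1 library 763 to 1992 and 90 to 241. With the replicate number as a block, 6 transferases were higher and 3 lower, and 1513 and 202 of all genes, the calls of Gsta1 and Gstm2 being lost. Same-numbered libraries did not deviate together (correlations -0.0806, -0.101 and -0.00985), so the numbers were not taken to pair them.

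The log2 ratio of summed RPKM moved under median-ratio scaling from 0.09 to -0.19 over all members (upper-quartile -0.15), from 0.37 to 0.09 for GST, from -0.14 to -0.41 for UGT, from 0.02 to -0.25 for Gstk, from -0.46 to -0.73 for Gstz and from -0.60 to -0.87 for Ugt1a. No called gene reversed. Differences of genes not called changed sign as follows. Under median-ratio scaling Gsta3 was -0.09, Gstk1 -0.25, Gstt1 -0.02, Gstt2 -0.12, Ugt2b1 -0.04, Stk4 -0.11 and Ahr -0.10. Under upper-quartile scaling Gsta3 was -0.05, Gstk1 -0.21, Gstt2 -0.08, Ugt2b1 0.00, Stk4 -0.08 and Ahr -0.06. Under quantile normalization Gstk1 was -0.04, Gstt2 0.00, Mgst1 0.29, Ugt2b5 0.08, Stk4 -0.16 and Ahr -0.06. Scaling without the top 20 genes gave Gstk1 0.00. Sample weights gave Ugt1a6a 0.38, Ugt1a6b 0.33, Ugt2b5 0.12, Ugt3a1 0.02, Nr1i2 0.07 and Gclc 0.04. With 1 library left out, values ran from -0.05 to 0.14 for Gstk1, -0.34 to 0.01 for Gstm7, -0.04 to 0.31 for Gstt2, -0.36 to 0.11 for Mgst1, -0.25 to 0.14 for Ugt1a6a, -0.33 to 0.14 for Ugt1a6b, -1.67 to 0.04 for Ugt1a9, -0.27 to 0.13 for Ugt2a3, -0.19 to 0.24 for Ugt2b5, -0.32 to 0.19 for Ugt3a1 and -0.13 to 0.03 for Nr1i2. Apart from the fewer genes tested or libraries used, the cause was not tested. RPKM without read totals limits the precision of low genes, and 3 libraries a group limit all differences.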
